A study of Mus musculus with 18 samples.

Results

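The genes described here encode the folding machinery of the endoplasmic reticulum (ER), the sensors that watch over it and the genes that cells switch on through the transcription factor ATF4 when amino acids run short. The 37 genes were listed by name, and all 37 were measured among the 19938 genes of the arrays. They comprise 19 genes of ER folding and disposal of misfolded proteins, 4 genes of the sensors and 14 genes of the ATF4 amino acid arm. Each gene was read from the probe set of that gene alone with the highest mean over the 18 arrays, and levels are log2 values. The 6 groups of mouse cells had 3 arrays each. The line Comma-D, mammary epithelium of normal origin, is called erbB2-negative by the labels. MMTV-neu is a line of mammary tumour cells carrying the neu oncogene under the mammary tumour virus promoter, and the labels call it erbB2-positive with phosphorylated erbB2. The remaining groups are erbB2-negative and erbB2-positive fractions of co-cultures of these lines at 1:50 and 1:1, pulled apart by magnetic beads carrying an antibody against erbB2. The labels call both erbB2-negative fractions normal, the 1:1 erbB2-positive fraction cancer and the 1:50 erbB2-positive fraction redirected, with erbB2 but without its phosphorylated form. The titles do not say which line made up the 50 parts. The co-cultures were kept in the Comma-D medium, which had less serum and added insulin and EGF, whereas MMTV-neu was kept in a medium of its own, so that line and medium cannot be told apart.

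Proteins bound for the cell surface or for secretion fold in the ER with the help of chaperones such as Hspa5 (BiP), and those that fail are sent out for degradation. When unfolded proteins build up, the sensors Ern1 (IRE1), Atf6 and Eif2ak3 (PERK) set off the unfolded protein response, in which the factors XBP1 and ATF6 raise the chaperone genes. Eif2ak3 and other kinases of the same target, among them the kinase that senses uncharged tRNA, slow translation and favour that of ATF4, which raises genes of amino acid synthesis and uptake. Milk-producing mammary epithelium is a secretory tissue with a large ER.

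Both arms have their own promoter elements, so the RefSeq promoters of the members (build GRCm38.p6, from 250 bases before to 50 bases after the start) were searched on both strands. An entry was present for 33 of the 37 members. The ER stress element, read as CCAAT, any 9 bases and CCACG, was found in 9 of 17 folding genes (52.9%), in 0 of 3 sensor genes and in 0 of 13 ATF4 arm genes, against 37 of 27025 genes in all (0.137%). Its carriers were Hspa5, Hsp90b1 with 2 copies, Calr, Canx, Pdia6, Dnajc3, Creld2, Syvn1 and Derl3. A second form, read as ATTGG, any 1 base and CCACG, was found in Herpud1 and Dnajb11 and in 0.0444% of all genes. The amino acid response element, read as TGATGNAA, was found in 4 of 13 ATF4 arm genes (Asns, Atf3, Chac1 and Trib3), in 1 of 17 folding genes (Herpud1) and in 4.51% of all genes. The element TGACGTGG was found in 0 of the 33 members and in 0.714% of all genes. Matches of different elements overlapped in 0 members. These are matches of letters in 1 window per promoter, and a missing match says nothing about binding. The sequences below are shown because the same ER stress element precedes the chaperone genes Hspa5 and Hsp90b1, which were lower in MMTV-neu, Syvn1, which was not called, and Derl3, which was higher. Herpud1 is shown because it holds elements of both kinds, and Asns, Atf3 and Chac1 because they hold the amino acid response element. Capitals mark the matches, and each sequence runs 5′ to 3′ on the strand of its gene. The windows lie at chr2:34771980-34772059 (+) for Hspa5, chr10:86705525-86705669 (-) for Hsp90b1, chr19:6046516-6046565 (+) for Syvn1, chr10:75893228-75893277 (+) for Derl3, chr8:94386304-94386398 (+) for Herpud1, chr6:7693210-7693269 (-) for Asns, chr1:191183414-191183463 (-) for Atf3 and chr2:119351032-119351081 (+) for Chac1.
Hspa5: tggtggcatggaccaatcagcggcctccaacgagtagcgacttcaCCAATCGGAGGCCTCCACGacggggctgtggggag
Hsp90b1: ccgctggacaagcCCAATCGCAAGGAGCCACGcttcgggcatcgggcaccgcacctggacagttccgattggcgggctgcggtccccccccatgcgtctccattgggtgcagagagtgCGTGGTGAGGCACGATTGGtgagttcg
Syvn1: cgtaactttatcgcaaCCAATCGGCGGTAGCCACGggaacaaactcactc
Derl3: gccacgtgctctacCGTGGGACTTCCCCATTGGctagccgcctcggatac
Herpud1: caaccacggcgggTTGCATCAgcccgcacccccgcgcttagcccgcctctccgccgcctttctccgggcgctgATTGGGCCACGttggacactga
Asns: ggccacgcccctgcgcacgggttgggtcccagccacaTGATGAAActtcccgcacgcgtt
Atf3: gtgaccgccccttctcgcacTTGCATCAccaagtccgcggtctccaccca
Chac1: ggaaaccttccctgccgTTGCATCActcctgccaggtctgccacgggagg

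Before the members are described, some features of the arrays bear on every value. Values within an array were more widely spread in Comma-D (standard deviation 1.98, mean of 3 arrays) than in MMTV-neu (1.53), and 9 measured reference genes averaged -1.75 in MMTV-neu and -1.03 in the 1:1 erbB2-positive fraction relative to Comma-D. In MMTV-neu these 9 genes ranged from -3.94 to 0.24, with 8 called lower and 1 higher, so they did not shift by the same amount. Differences were therefore also computed after centring on those reference genes, which moved the median of all genes for MMTV-neu against Comma-D from 0.40 to 2.15, and after quantile normalization, which moved it to 0.23. The share of called genes that were higher rose from 65.0% to 93.0% with centring. Of 15 luminal epithelial markers, 13 lay above the array median in each line, and 9 of 11 basal markers were lower in MMTV-neu, with array means of 7.39 to 7.64 against 9.53 in every Comma-D array. Of 9 leukocyte markers 7 were higher and 2 lower in MMTV-neu (median difference 0.87), as were 8 and 0 of 8 endothelial (1.04), 6 and 0 of 6 adipocyte (0.72), 5 and 1 of 6 plasma cell (0.73) and 5 and 5 of 10 fibroblast markers (-0.17). The leukocyte markers averaged 5.77 to 5.79 in the Comma-D arrays and 6.11 to 6.42 in the MMTV-neu arrays, where 3 and 2 of them lay above the array median. The endothelial markers averaged 5.36 to 5.38 and 6.23 to 6.35. Genes with low Comma-D levels were mostly higher in MMTV-neu whatever their kind. Of the 25% with the lowest levels 4620 of 4985 were higher (median 0.61), and of the next 25% 4392 of 4984 (0.95). In Comma-D only 1 of 8 endothelial, 1 of 6 adipocyte and 1 of 6 plasma cell markers lay above the array median. These counts therefore do not show that such cells were present. The part of such cells in any result was not tested. Erbb2 itself averaged 8.20 in Comma-D and 8.06 in MMTV-neu (difference -0.14, SE 0.10, limma adjusted p = 0.184). It differed by 0.08 between the 1:1 fractions and by -0.05 between the 1:50 fractions, so its transcript did not mark the labelled fractions here. Whether its probes read the neu transgene is not given in the sources used here.

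In MMTV-neu, the stress genes as deposited were lower than in Comma-D nearly throughout, whereas after centring on the reference genes as many were higher as lower. Of the 37 members 34 were called lower and 1 higher (limma, adjusted p under 0.05), where 30.4% and 56.4% of all genes were called. Their median difference was -1.74, against 0.40 over all genes. This picture depended on the scale. After centring 13 were lower and 13 higher, where 93.0% of the 18385 called genes were higher. After quantile normalization the folding arm gave 14 lower and 2 higher and the ATF4 arm 7 lower and 0 higher. Under all 3 scalings 13 members were called lower, namely the folding genes Hspa5, Hsp90b1, Canx, Pdia3, Pdia4, Dnajb9, Dnajc3 and Edem1 and the ATF4 arm genes Atf3, Asns, Psat1, Shmt2 and Slc3a2. Derl3 was called higher under all 3. In 16 other members the sign of the called difference turned under at least one scaling. The lines compared here were unmixed. In the co-culture fractions described below, fewer cells of a type and less RNA per cell cannot be told apart.

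**Figure D1:**
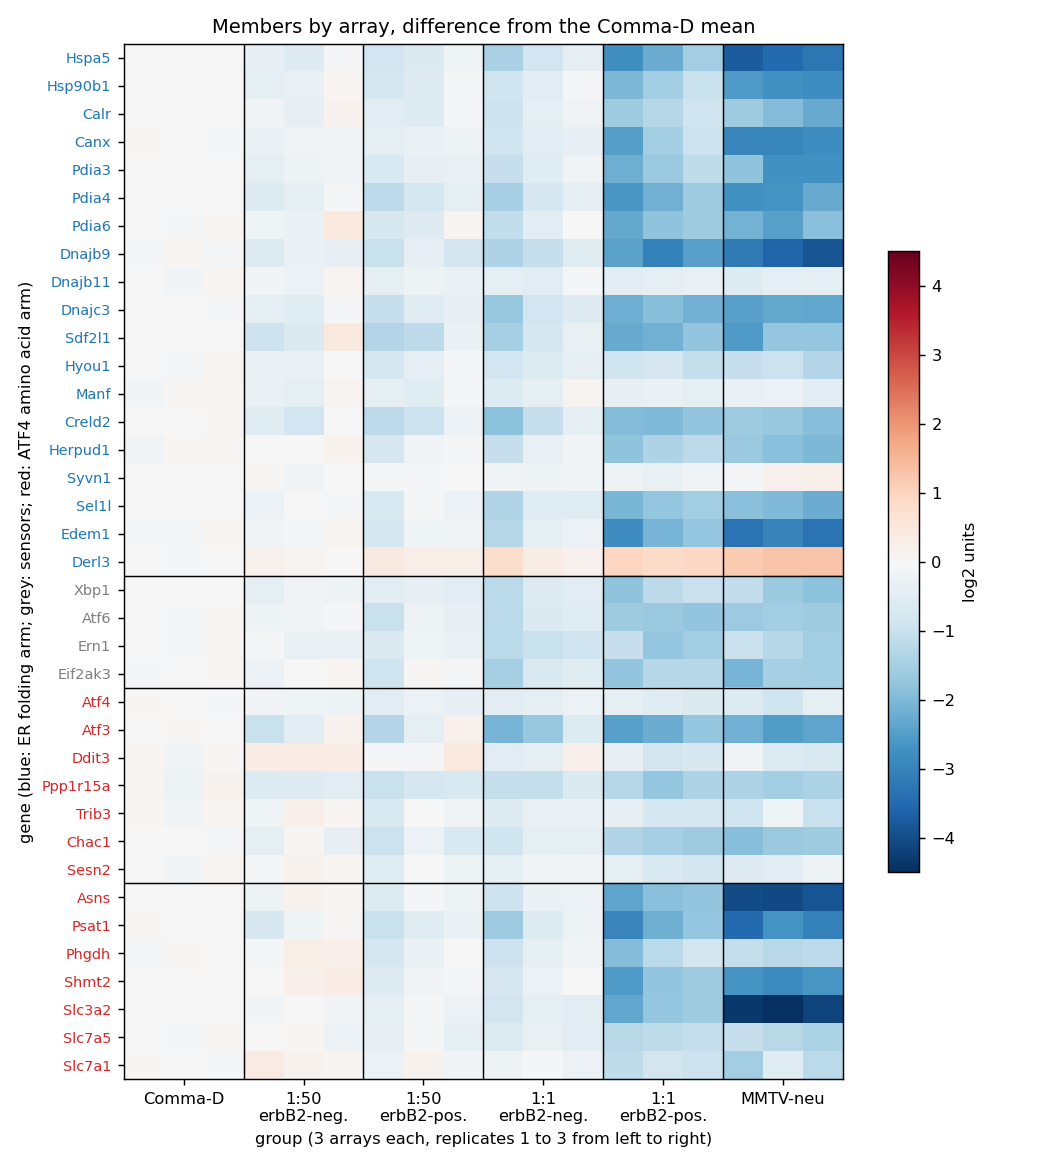
Difference of each of the 37 members from its Comma-D mean (log2, as deposited, blue below and red above 0) in each of the 18 arrays, grouped by arm from top to bottom and by group from left to right. The MMTV-neu and 1:1 erbB2-positive columns are blue for most genes, Derl3 is red there, and replicate 1 has the lowest mean of the folding arm in each of the 4 co-culture fractions; the direction of 16 called members in MMTV-neu turns under another scaling.

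The folding arm, most of it chaperones and their helpers, had 16 genes called lower and 1 higher as deposited, and 8 lower and 5 higher after centring. Hspa5, the master chaperone of the ER, stood at 11.99, 11.99 and 12.02 in Comma-D and at 8.27, 8.52 and 8.76 in MMTV-neu. The lines did not overlap, which held for 17386 of all 19938 genes. The level of Hspa5 was 11.2-fold lower in MMTV-neu (difference -3.48, SE 0.27, limma adjusted p = 9.44e-09). Centring reduced this difference to -1.73 and quantile normalization to -2.59. Dnajb9 (ERdj4), a co-chaperone of Hspa5 that restrains IRE1, had a larger difference. Its levels were 9.33, 9.46 and 9.32 in Comma-D and 6.18, 5.76 and 5.50 in MMTV-neu, where it was the only member whose mean lay under the array median of 6.46. The difference was -3.56 (SE 0.22, limma adjusted p = 8.76e-10), or -1.81 after centring. Canx, a lectin chaperone that holds newly glycosylated proteins, stood at 12.23, 12.19 and 12.15 in Comma-D and at 9.26, 9.25 and 9.39 in MMTV-neu. It differed by -2.89 and its soluble relative Calr by -1.93, and Hsp90b1 (GRP94) by -2.69. The disulfide isomerases Pdia3, Pdia4 and Pdia6, which form and shuffle disulfide bonds, differed by -2.42, -2.55 and -2.15. Dnajc3, which dampens PERK, differed by -2.36. At the other end, Dnajb11 differed by -0.49, Hyou1 by -1.11 and Creld2 by -1.74, and these 3 turned to 1.26, 0.64 and 0.01 after centring. Manf, a secreted ER stress protein, differed by -0.37 and was not called (limma adjusted p = 0.056). Pdia4 rests on the brighter of 2 probe sets, the other of which stood at 4.77 in Comma-D, below the array median of 6.03.

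Of the genes that dispose of misfolded proteins, Edem1, Sel1l and Herpud1 were lower, Syvn1 was not called and Derl3 was higher. Edem1, which pulls misfolded glycoproteins out of the folding cycle, stood at 9.83, 9.83 and 9.94 in Comma-D and at 6.53, 6.86 and 6.56 in MMTV-neu (difference -3.22, SE 0.26, limma adjusted p = 1.27e-08). The lines did not overlap, as for 17386 of all 19938 genes. Edem1 was 9.29-fold lower in MMTV-neu and called lower under all 3 scalings. Sel1l, the adaptor of the ubiquitin ligase, differed by -2.03, and Herpud1, which gathers the disposal machinery at the membrane, by -1.85. Both differences shrank to -0.28 and -0.10 after centring and were then no longer called. Syvn1 (HRD1), the ligase that Sel1l serves, stood at 8.99, 9.02 and 8.96 in Comma-D and at 8.91, 9.17 and 9.21 in MMTV-neu. These levels overlapped and the difference of 0.11 was not called, although without MMTV-neu replicate 1 it was called higher, at 0.20. Derl3, a channel component of disposal that is typical of secretory cells, stood at 5.72, 5.65 and 5.70 in Comma-D and at 6.87, 6.98 and 6.96 in MMTV-neu. It was 2.37-fold higher (difference 1.25, SE 0.12, limma adjusted p = 1.27e-07). Its Comma-D mean of 5.69 lay under the array median, in a range where genes were mostly higher in MMTV-neu, as the 25% of genes with the lowest Comma-D levels had a median difference of 0.61 and the next 25% one of 0.95.

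All 4 sensor genes were lower in MMTV-neu as deposited, and all 4 turned positive after centring. Only Ern1 was then called (0.47, limma adjusted p = 0.046), while Xbp1 (0.20), Atf6 (0.15) and Eif2ak3 (0.04) were not. After quantile normalization all 4 were called lower, with Xbp1 at -0.44, Atf6 at -1.01, Ern1 at -0.70 and Eif2ak3 at -1.42. Xbp1, whose spliced form drives chaperone genes, stood at 11.35, 11.35 and 11.32 in Comma-D and at 10.22, 9.66 and 9.49 in MMTV-neu. The lines did not overlap, with a difference of -1.55 as deposited and 0.20 after centring. The arrays read the gene as a whole and do not separate its spliced form. Atf6 stood at 9.13, 9.003 and 9.17 in Comma-D and at 7.46, 7.54 and 7.51 in MMTV-neu, a difference of -1.60. Eif2ak3 stood at 8.67, 8.71 and 8.77 and at 6.61, 7.22 and 7.19, a difference of -1.71. Ern1 stood at 8.84, 8.78 and 8.91 and at 7.84, 7.56 and 7.29, a difference of -1.28. The lines did not overlap for these sensors either, but this held for 17386 of all 19938 genes.

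In the ATF4 arm all 14 genes were called lower in MMTV-neu as deposited, but after centring 5 were lower and 7 higher. Its 7 stress regulators had a median difference of -0.71 between the lines (1.04 after centring), and its 7 genes of amino acid synthesis and transport one of -2.72 (-0.97 after centring). Slc3a2, the heavy chain that carries amino acid exchangers to the surface, stood at 12.30, 12.28 and 12.32 in Comma-D and at 7.96, 7.79 and 8.14 in MMTV-neu. This was the largest difference of any member as deposited, 20.2-fold (-4.34, SE 0.16, limma adjusted p = 1.83e-12), and it was -2.59 after centring and -3.67 after quantile normalization. Asns, asparagine synthetase and a classical ATF4 target, stood at 11.65, 11.64 and 11.66 in Comma-D and at 7.64, 7.59 and 7.75 in MMTV-neu. It was 15.9-fold lower (difference -3.99, SE 0.18, limma adjusted p = 2.20e-11). The arrays of the lines lay more than 3 log2 units apart for both genes. Psat1 of serine synthesis stood at 10.46, 10.41 and 10.40 in Comma-D and at 6.94, 7.72 and 7.39 in MMTV-neu (difference -3.07). Shmt2, which makes mitochondrial one-carbon units from serine, stood at 10.80, 10.80 and 10.82 and at 8.14, 7.94 and 8.19 (difference -2.72). Phgdh, the first enzyme of serine synthesis, differed by only -1.16, and the exchanger light chain Slc7a5 and the arginine carrier Slc7a1 by -1.23 and -1.11. These last 3 turned to 0.59, 0.52 and 0.64 after centring. Slc3a2 and Slc7a5, whose proteins work as a pair, thus differed by -4.34 and -1.23 between the lines, and the gap between the genes was not tested.

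Among the regulators, Atf4 itself changed little. It stood at 8.94, 8.91 and 8.83 in Comma-D and at 8.28, 8.001 and 8.49 in MMTV-neu, a difference of -0.64 (SE 0.12, limma adjusted p = 6.69e-05) that turned to 1.11 after centring and 0.20 after quantile normalization. ATF4 is controlled mainly by translation, which these arrays do not measure. Ddit3 (CHOP), the factor tied to death under prolonged stress, differed by -0.48, its arrays overlapped between the lines, and its call was lost when any 1 of Comma-D replicate 1 or 3 or MMTV-neu replicate 2 or 3 was left out (limma adjusted p 0.0077 to 0.101 over the 6 arrays left out in turn). Sesn2 and Trib3, brakes on growth and on ATF4 signalling, differed by -0.45 and -0.71, and Ppp1r15a (GADD34), which restores translation, by -1.45. Chac1, which degrades glutathione, differed by -1.73. All of these turned positive after centring, though Ppp1r15a (0.30) and Chac1 (0.02) were then not called. After quantile normalization Ppp1r15a (-1.47) and Chac1 (-0.81) were called lower, and Ddit3, Sesn2 and Trib3 were not called. Atf3 was the exception among the regulators. It stood at 9.71, 9.77 and 9.71 in Comma-D and at 7.56, 7.21 and 7.35 in MMTV-neu (difference -2.35, SE 0.37, limma adjusted p = 1.58e-05) and was lower under every scaling tried.

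The size of these differences went with the level of each gene. In Comma-D 32 of the 37 members lay among the 25% of genes with the highest levels. These genes as a whole had a median difference of -1.37 in MMTV-neu, and 24 of the 37 members lay below that median, including 14 of 19 folding genes, 3 of 4 sensors and 7 of 14 ATF4 arm genes. Across the 37 members Pearson's r between the Comma-D level and the difference was -0.77 (Spearman's rho -0.77), and across all 19938 genes r was -0.74 (rho -0.63). Both axes hold the Comma-D value, and genes are not independent replicates.

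**Figure D2:**
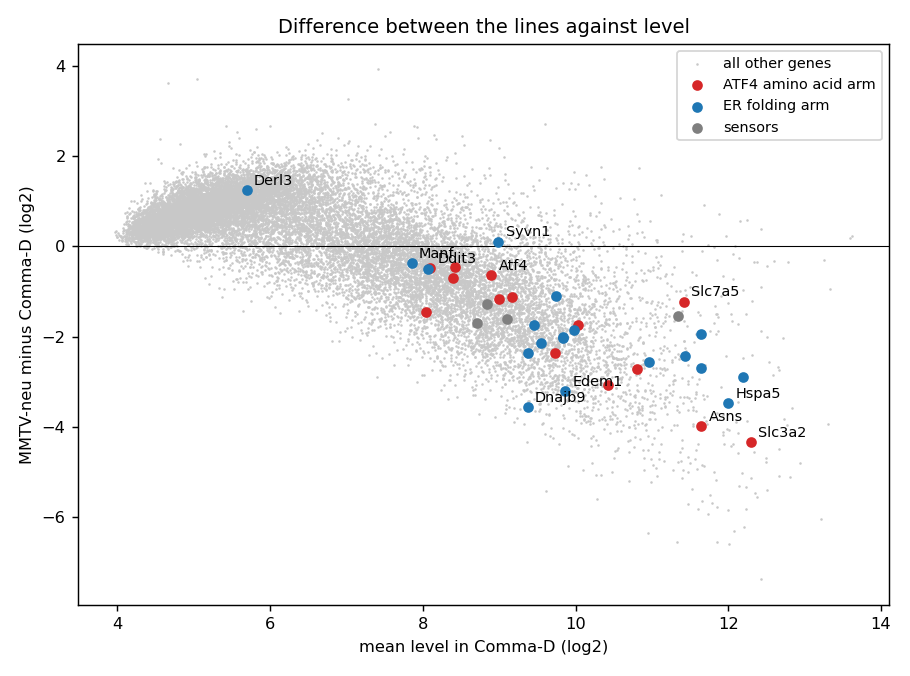
Difference between MMTV-neu and Comma-D (vertical, log2, as deposited) against the mean level in Comma-D (horizontal, log2) for every gene, with the ER folding arm in blue, the sensors in dark grey and the ATF4 amino acid arm in red. Genes with high Comma-D levels mostly lie below 0 (r = -0.74 over 19938 genes); Slc3a2 at -4.34 and Asns at -3.99 are the lowest members and Derl3 at 1.25 the highest.

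Further genes of the same pathways, listed for this purpose, were described in the same way. Of 43 measured companions of ER folding, transport and glycosylation, 37 were lower and 3 higher in MMTV-neu as deposited (median -1.81), 18 lower and 18 higher after centring and 28 lower and 6 higher after quantile normalization. Ssr3 of the translocon and the retrieval receptor Kdelr3 differed by -3.83 and -3.71 (-2.08 and -1.96 after centring), while the translocon subunit Sec61b and the signal recognition particle gene Srp19 were higher, by 1.98 and 0.48. Of 34 measured companions of the ATF4 arm 24 were lower and 7 higher as deposited (median -0.81), whereas after centring 9 were lower and 22 higher (median 0.94). Sqstm1, a receptor of selective autophagy, and the glutamine carrier Slc38a2 differed by -4.19 and -3.81. Stc2, a secreted glycoprotein, and Cbs, which makes cystathionine, were higher, by 1.34 and 1.21. These 8 named companions kept their direction and their call under all 3 scalings.

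Averaged over their genes, the folding arm and the ATF4 arm lay at similar distances from Comma-D as deposited. The mean difference from Comma-D was -1.87 (SD 0.03, n = 3) for the folding arm and -1.82 (SD 0.03, n = 3) for the ATF4 arm in MMTV-neu. The medians over the genes of each arm lay further apart there, at -2.03 and -1.34. They were -1.29 and -0.64 after quantile normalization and -0.28 and 0.41 after centring. In the 1:1 erbB2-positive fraction the means were -1.45 (SD 0.26) and -1.37 (SD 0.14), in the 1:1 erbB2-negative fraction -0.61 (SD 0.38) and -0.55 (SD 0.28), in the 1:50 erbB2-positive fraction -0.44 (SD 0.26) and -0.36 (SD 0.26) and in the 1:50 erbB2-negative fraction -0.20 (SD 0.20) and -0.06 (SD 0.12). The gap between the arm means, taken within each array, was between -0.33 and 0.05 throughout. Within the ATF4 arm the distance was wider, and in MMTV-neu its synthesis and transport genes averaged -2.52 and its regulators -1.12, and in the 1:1 erbB2-positive fraction -1.66 and -1.08. After centring, those MMTV-neu means were -0.77 and 0.63, so that both sets of the arm then lay on opposite sides of Comma-D, and the folding arm averaged -0.12. In the same order of groups the reference genes averaged -1.75, -1.03, -0.34, -0.24 and -0.02, and genes that respond to cell handling, such as heat shock and immediate early genes, -1.84, -1.49, -0.86, -0.72 and -0.54. Their part in the shifts of the arms was not tested.

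**Figure D3:**
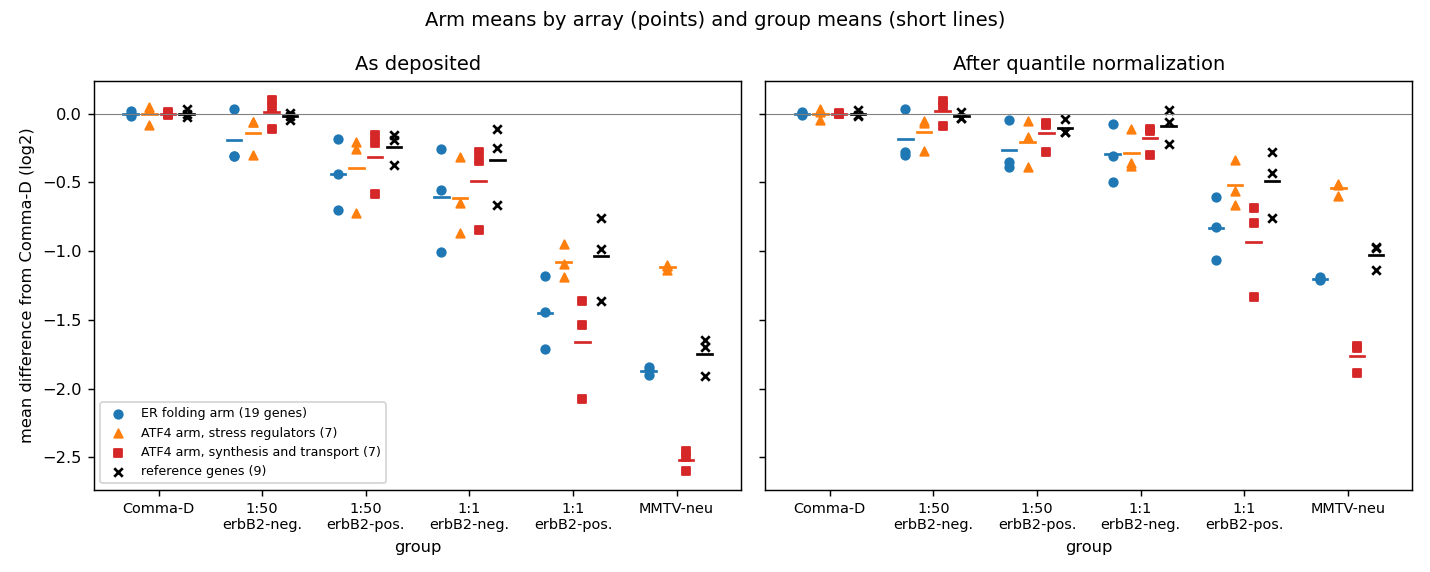
Mean difference from Comma-D (vertical, log2) of the folding arm, of the regulators and of the synthesis and transport genes of the ATF4 arm, and of 9 reference genes, in each array (points) with group means (short lines), as deposited on the left and after quantile normalization on the right. In MMTV-neu the synthesis and transport genes lie lowest, at -2.52 as deposited, and the regulators at -1.12; after centring on the reference genes these means are -0.77 and 0.63.

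In the 1:1 erbB2-positive fraction most members lay below Comma-D as deposited. Against Comma-D 35 of 37 were called lower and 1 higher (32.5% and 45.8% of all genes), with a median of -1.48. In the 25% of genes with the highest Comma-D levels 4251 of 4985 were lower and 227 higher, with a median of -1.23. After centring 20 members were lower and 5 higher, where 87.0% of the 16992 called genes were higher. Hspa5 stood at 9.24, 9.77 and 10.43 in this fraction, Asns at 9.29, 9.77 and 9.89 and Slc3a2 at 9.96, 10.55 and 10.70. All of these lay between the arrays of the lines and overlapped with neither. Over all 19938 genes, 16962 did not overlap with Comma-D and 6418 did not overlap with MMTV-neu. The members called lower under all 3 scalings numbered 20, of which 13 were folding genes, 1 was the sensor Atf6 and 6 were ATF4 arm genes. Basal epithelial markers were lower in 8 of 11 cases and higher in 1 as deposited (2 and 3 after centring), and 7 of 9 leukocyte and 8 of 8 endothelial markers were higher. As deposited, 3318 of 4985 genes in the 25% with the lowest Comma-D levels were higher as well. So were 4060 of 4984 in the next 25%. The part of the marker genes was not tested. Dnajb9 differed from Comma-D by -2.63, Psat1 by -2.29, Edem1 by -2.21, Hspa5 by -2.19 and Pdia4 by -2.13.

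The same fraction stayed above MMTV-neu in part of the members. Against MMTV-neu 9 members were called higher (4.21% of all genes) and 1 lower (14.1%), with a median of 0.22, and after centring 5 were higher and 23 lower. Slc3a2 was higher by 2.44 (SE 0.16, limma adjusted p = 1.96e-08), a factor of 5.44, and Asns by 1.99 (SE 0.18, limma adjusted p = 1.60e-06), a factor of 3.97. Hspa5 (1.30), Canx (1.23) and Hsp90b1 (1.18) were likewise higher, and these 5 genes held under all 3 scalings. The calls of Edem1 (1.00), Dnajb9 (0.93), Shmt2 (0.75) and Calr (0.67) did not hold after centring, where Calr turned to -0.04. Leaving out 1:1 erbB2-positive replicate 3 ended each of these 4 calls (limma adjusted p 0.091, 0.058, 0.132 and 0.200), and left 5 members higher. Leaving out replicate 2 of that fraction also ended those of Edem1, Shmt2 and Calr, and MMTV-neu replicate 2 those of Shmt2 and Calr. MMTV-neu replicate 3 ended that of Calr. Comparisons with the same line or fraction share its arrays and are given side by side. On a scale where Comma-D is 0% and MMTV-neu 100%, computed for members whose lines differed by at least 1 log2 unit, the fraction had a median position of 76.4% for 16 folding genes, 86.5% for 10 ATF4 arm genes and 95.5% for the 4 sensors. Slc3a2 lay at 43.7% and Asns at 50.1%, while Ern1 lay at 113%, Phgdh at 115% and Creld2 at 110%. These positions are on the log2 scale and are not shares of cells. Whether Comma-D RNA in the fraction or a change within cells placed the genes between the lines cannot be told apart.

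**Figure D4:**
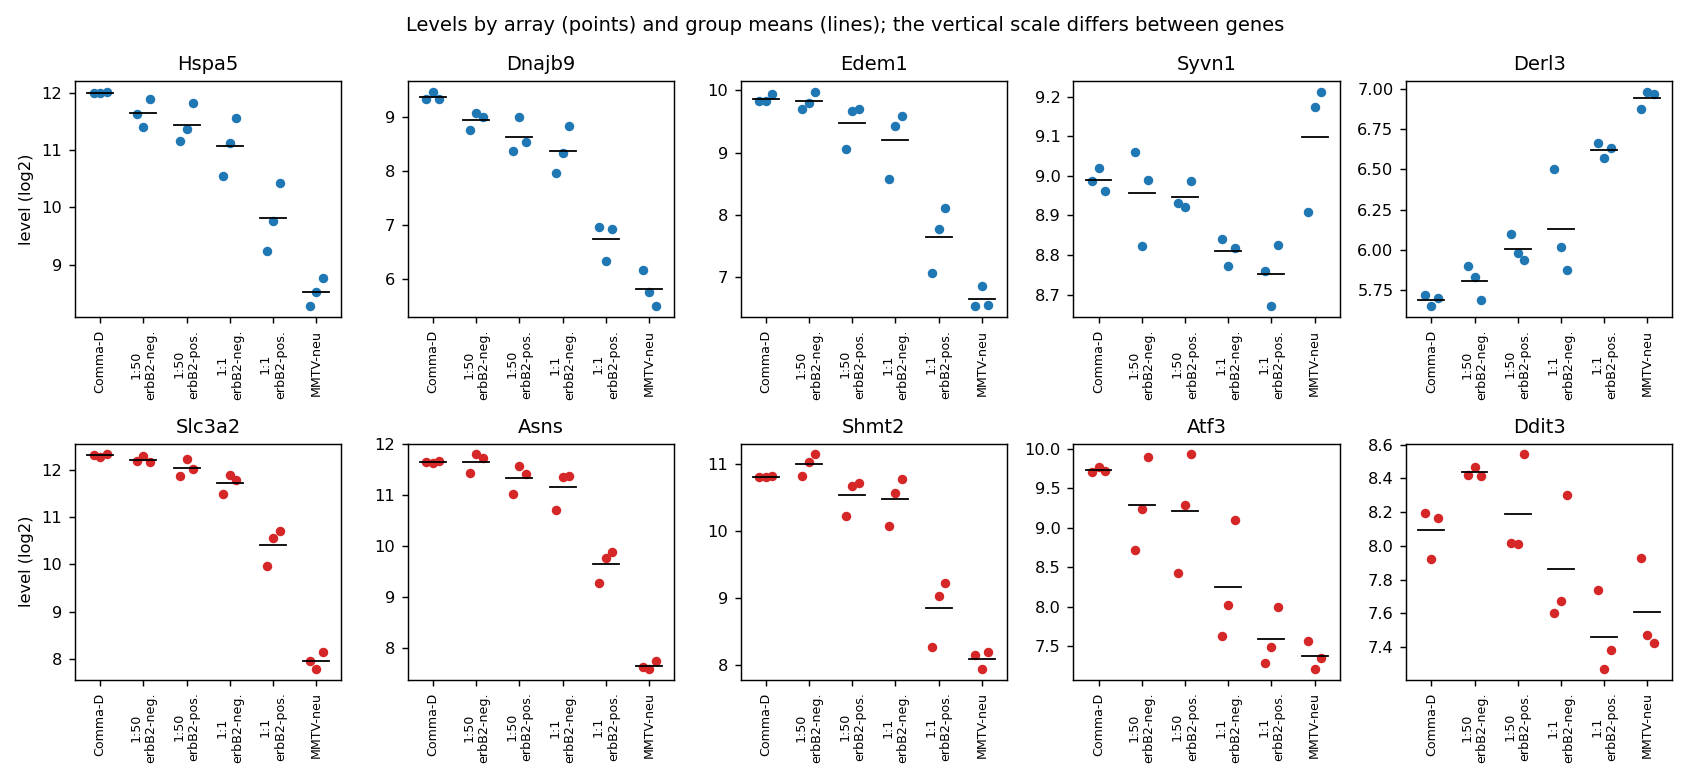
Levels (vertical, log2, with a different range for each gene) of 5 folding genes (blue) and 5 ATF4 arm genes (red) in the 3 arrays of each group, with group means as lines. Slc3a2 and Asns in the 1:1 erbB2-positive fraction lie clear of both lines, Syvn1 has its lowest mean in that fraction, and Derl3 rises from 5.69 in Comma-D to 6.94 in MMTV-neu.

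In the 1:50 erbB2-positive fraction, which the labels call redirected, few members were called against Comma-D. On the scale from Comma-D to MMTV-neu it had a median position of 19.05% for the folding genes, 21.2% for the ATF4 arm genes and 29.8% for the sensors. Hspa5 stood at 11.15, 11.36 and 11.81, Asns at 11.03, 11.56 and 11.41 and Slc3a2 at 11.87, 12.22 and 12.02. These arrays lay below all Comma-D arrays for each of the 3 genes, by less than 1 log2 unit. Over all genes, 7482 of 19938 did not overlap between these groups, in either direction. Against Comma-D 2 members were called lower, Ppp1r15a (-0.83, SE 0.14, limma adjusted p = 0.0020) and Chac1 (-0.64, SE 0.17, limma adjusted p = 0.039), and 0 higher, where 4.54% and 1.17% of all genes were called. Neither held under all 3 scalings, and Chac1 lost its call without any single Comma-D array and without replicate 1 or 3 of the fraction. At an unadjusted p under 0.05, 14 members were lower and 1 higher. Without replicate 2 of the fraction 4 members were called lower, and without replicate 1, or without any 1 Comma-D array, 1 was. The means of 35 members lay below Comma-D, with a median of -0.38.

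Against MMTV-neu the 1:50 erbB2-positive fraction had 31 members higher and 1 lower (25.8% and 57.6% of all genes), with a median of 1.10. Of the 4985 genes in the 25% with the highest Comma-D levels, 3815 were higher and 358 lower, with a median of 1.05. After centring 10 members were higher and 17 lower, where 6.03% of the 18397 called genes were higher. Higher under all 3 scalings were Hspa5, Hsp90b1, Canx, Pdia3, Dnajb9, Edem1, Asns, Psat1, Shmt2 and Slc3a2, and Derl3 was lower.

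The comparison of the erbB2-positive fractions asks how the ratio of the co-culture went with these genes. In the 1:50 fraction 31 members were higher than in the 1:1 fraction and 1 was lower (27.4% and 44% of all genes). The median of the members was 1.10, against -0.19 over all genes. Of the 4985 genes in the 25% with the highest Comma-D levels, 3883 were higher and 249 lower, with a median of 0.92. After centring 14 members were higher and 5 lower, where 11.5% of the 16545 called genes were higher. By arm, 15 folding genes were higher and Derl3 was lower (6.10, 5.98 and 5.94 against 6.67, 6.57 and 6.63, a difference of -0.61), all 4 sensors were higher, and 12 ATF4 arm genes were higher, namely all 7 of synthesis and transport (median 1.63) and 5 of the 7 regulators (median 0.64 over the 7). Dnajb9 was 8.37, 8.99 and 8.53 against 6.97, 6.33 and 6.93, a difference of 1.89 (SE 0.22, limma adjusted p = 5.80e-06). Slc3a2 was 3.102-fold and Hspa5 3.097-fold higher, and both were called higher under all 3 scalings. Edem1 stood at 9.06, 9.68 and 9.71 against 7.07, 7.77 and 8.12 (difference 1.83), and Pdia6 at 8.83, 8.97 and 9.66 against 7.23, 7.73 and 7.95 (1.52). Shmt2 stood at 10.22, 10.67 and 10.71 against 8.27, 9.03 and 9.23 (1.69), and Psat1 at 9.41, 9.88 and 10.11 against 7.46, 8.24 and 8.69 (1.66). For these 4 genes every 1:50 array lay above every 1:1 array. Over all genes, 15700 of 19938 did not overlap between these fractions, in either direction. Asns was higher by 1.69 and Atf3 by 1.62. Of the 31, 14 were higher under all 3 scalings, while Hyou1, Ddit3, Ppp1r15a and Sesn2 turned negative after centring. Trib3 (0.38), Syvn1 (0.19), Atf4 (0.16), Dnajb11 (0.11) and Manf (0.03) were not called. Trib3 was called without 1:50 replicate 1, and Syvn1 with the replicate number as a block in the 12 co-culture arrays (limma adjusted p = 0.0347). Hyou1 lost its call without 1:50 replicate 3 (limma adjusted p = 0.130) or 1:1 replicate 3 (0.071), and Sdf2l1 without 1:50 replicate 3 (0.0561). Sesn2 lost its call without replicate 2 or 3 of either fraction (limma adjusted p 0.0642 to 0.148). Among the companions 33 of 43 folding genes were higher and 2 lower (17 and 11 after centring), and 23 of 34 ATF4 arm genes were higher and 6 lower (9 and 12 after centring). Of the 21 genes that respond to cell handling 12 were higher and 1 lower (median 0.65). Of 11 basal epithelial markers 9 were higher and 1 lower (median 1.44, or 7 and 1 after centring), and of 15 luminal markers 5 were higher and 8 lower. Markers of other cell types were mostly lower as deposited, with 7 of 9 leukocyte, 7 of 8 endothelial and 5 of 6 adipocyte markers, against 1, 4 and 2 after quantile normalization. The part of these genes and cells was not tested. Of the folding companions the protease Mbtps1, which activates ATF6, was higher by 2.05 and the folding sensor Uggt1 by 2.03, while Sec61b and the oxidase Ero1b were lower (-1.36 and -0.30). Of the ATF4 arm companions Aldh1l2, a mitochondrial folate enzyme, was higher by 1.90 and Slc38a2 by 1.79, while Cbs and Stc2 were lower (-0.99 and -0.88). All of these calls held under all 3 scalings except that of Ero1b, which was not called after quantile normalization (-0.02).

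The erbB2-negative fractions, which the labels call normal, differed in how far they lay from Comma-D. In the 1:50 erbB2-negative fraction 0 members were called in either direction (0.592% of all genes higher and 1.08% lower by limma). At an unadjusted p under 0.05 1 member was lower and 0 higher. Hspa5 stood there at 11.63, 11.41 and 11.90, Asns at 11.43, 11.80 and 11.72 and Ddit3 at 8.42, 8.47 and 8.42. The Asns arrays lay on both sides of Comma-D, and those of Ddit3 above it. Over all genes, 5513 of 19938 did not overlap between these groups, in either direction. In the 1:1 erbB2-negative fraction 19 members were called lower and 1 higher (20.9% and 14.9% of all genes), with a median of -0.58, against -0.50 in the 25% of genes with the highest Comma-D levels. The 19 comprised 8 folding genes, all 4 sensors and 7 ATF4 arm genes. Atf3 (-1.48), Creld2 (-1.10), Dnajc3 (-1.06), Ern1 (-1.03) and Dnajb9 (-0.997) differed most, and Derl3 was higher by 0.44. The 25% of genes with the lowest Comma-D levels had a median of 0.11 and the next 25% one of 0.28. Under all 3 scalings Dnajc3, Ern1, Atf3 and Ppp1r15a were lower and Derl3 higher. The count rested on single arrays: without 1:1 erbB2-negative replicate 1 it was 7, and without replicate 3 of that fraction it was 31. Replicate 1 also carried the calls of Creld2 and Derl3, which were lost without it (limma adjusted p 0.057 and 0.084). Atf3 in this fraction stood at 7.63, 8.03 and 9.10, and Hspa5 at 10.55, 11.12 and 11.56, with replicate 1 the lowest for both. Handling genes were lower in 14 of 21 cases in this fraction, and their part was not tested.

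Between the erbB2-negative fractions 10 members were higher at 1:50 than at 1:1 and 0 were lower (21.4% and 8.87% of all genes), with a median of 0.50. In the 25% of genes with the highest Comma-D levels the median was also 0.50, and 2632 of 4985 were higher and 82 lower. The 10 members were Dnajc3 and Sel1l, the sensors Atf6, Ern1 and Eif2ak3, the regulators Atf3 and Ddit3, and Asns, Slc3a2 and Slc7a5. After centring and after quantile normalization 0 were called. Same-numbered arrays of the co-cultures deviated together, and when the 12 co-culture arrays were fitted alone with the replicate number as a block, 27 were higher and 1 lower. The count was 1 without 1:1 replicate 1, 23 without 1:1 replicate 3, and 5, 3 and 2 without 1:50 replicates 1, 2 and 3.

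Within a co-culture, 0 members were called between the fractions at 1:50 and 27 at 1:1. At 1:50 0 members were called between the erbB2-positive and erbB2-negative fractions by limma (0.01% of all genes higher and 0% lower), and at an unadjusted p under 0.05 3 were lower and 0 higher. The means of 36 of the 37 members were nonetheless lower in the erbB2-positive fraction, with a median of -0.26 and a range of -0.55 to 0.20, the same median as in the 25% of genes with the highest Comma-D levels. At 1:1 26 members were lower in the erbB2-positive fraction and 1 was higher (21% and 35.2% of all genes), with a median of -0.83. In the 25% of genes with the highest Comma-D levels the median was -0.67, and 3319 of 4985 were lower and 199 higher. After centring 9 members were lower and 6 higher, where 92.2% of the 16230 called genes were higher. Hspa5, Pdia4, Pdia6, Dnajb9, Edem1, Asns, Psat1, Shmt2 and Slc3a2 were lower under all 3 scalings and Derl3 was higher. As deposited Derl3 differed by 0.49, where the 25% of genes with the lowest Comma-D levels had a median of 0.24 and the next 25% one of 0.45. Dnajb9 (-1.63) and Shmt2 (-1.63) differed most. Slc3a2 was 9.96, 10.55 and 10.70 in the erbB2-positive against 11.48, 11.89 and 11.77 in the erbB2-negative fraction, a difference of -1.31 (SE 0.16, limma adjusted p = 3.25e-05). The arrays did not overlap, as for 10968 of all 19938 genes. All 7 synthesis and transport genes were lower, as were 3 of the 7 regulators, Ppp1r15a, Chac1 and Sesn2. Handling genes were lower in 11 of 21 cases and higher in 1, and basal epithelial markers lower in 8 of 11 and higher in 1 (median -1.04, or 5 and 1 after centring). Luminal markers were higher in 7 of 15 cases and lower in 1, leukocyte markers higher in 4 of 9 and lower in 1, and endothelial markers higher in 5 of 8. Their part was not tested.

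Whether the difference between the ratios was of the same size in both fractions was tested as an interaction, the 1:50 minus 1:1 difference in the erbB2-positive fractions minus that in the erbB2-negative ones, which is also the 1:50 minus the 1:1 difference between the fractions. It was positive for 4 members and negative for 0 (2.45% and 0.301% of all genes), and at an unadjusted p under 0.05 for 15 and 0. The 25% of genes with the highest Comma-D levels held 32 of the 37 members. Of these 4985 genes, 479 had a positive and 8 a negative interaction, so such calls were not particular to the members. The 4 members were Dnajb9 (1.32, SE 0.32, limma adjusted p = 0.0362), Asns (1.19, SE 0.26, limma adjusted p = 0.0232), Shmt2 (1.16, SE 0.30, limma adjusted p = 0.0471) and Slc3a2 (1.14, SE 0.23, limma adjusted p = 0.0158). Asns was 1.69 higher at 1:50 among the positive fractions and 0.50 among the negative ones. After centring 0 of the 4 were called. With the replicate number as a block in the 12 co-culture arrays 12 members were called. Leaving out each of the 12 arrays in turn gave counts from 0 to 18, the latter without 1:1 erbB2-negative replicate 1. Slc3a2 kept its call in 9 of these 12 fits and lost it without 1:50 erbB2-negative replicate 3, 1:1 erbB2-negative replicate 2 or 1:50 erbB2-positive replicate 2, Asns kept it in 5, and Dnajb9 and Shmt2 in 3 each.

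Only 1 member lay outside the range of the lines in any fraction, by the test against both. Syvn1 in the 1:1 erbB2-positive fraction stood at 8.76, 8.67 and 8.82, below all arrays of Comma-D and of MMTV-neu. It differed from Comma-D by -0.24 (SE 0.09, limma adjusted p = 0.0293) and from MMTV-neu by -0.35 (SE 0.09, limma adjusted p = 0.0197), where 0.823% of all genes lay below both lines and 0.0502% above both. The difference from Comma-D turned to 0.80 after centring and 0.58 after quantile normalization, and after centring 7 members lay below both lines in this fraction and 3 in the 1:1 erbB2-negative one. Without replicate 2 of the fraction neither call held (limma adjusted p 0.105 and 0.080). Both calls were also lost without the lowest 40% of genes and with a trended, robust prior. Leaving out other arrays ended 1 of the calls: Comma-D replicates 1 and 2 and replicate 1 of the fraction the first, and MMTV-neu replicates 2 and 3 the second. In the other fractions 0 members lay outside, where the shares of all genes above and below both lines were 0.181% and 0.557% for the 1:50 erbB2-positive, 0.326% and 0.261% for the 1:50 erbB2-negative and 0.13% and 1.23% for the 1:1 erbB2-negative fraction.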

How the data were processed

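Biotin-labelled RNA of 18 samples was hybridised to 1-colour mouse gene arrays, 3 per group for 6 groups. The deposited values are log2 expression per probe set, and the submitters' processing notes name RMA, R 3.1.2 and limma, with no further settings given in the sources used here. Arrays do not share one distribution, as RMA with quantile normalization would give, so the scaling between arrays is uncertain. Of 35556 probe sets 23410 had an annotation, 21789 of them with 1 gene and 1621 with several. A RefSeq gene table matched 21698 of the 1-gene probe sets, with 0 symbols altered. The brightest 1-gene probe set over all arrays stood for each of 19938 genes. All 18 arrays entered 1 fit in limma 3.58.1 (R 4.3.3), which leaves 12 residual degrees of freedom. Two-sided tests were used, with Benjamini-Hochberg adjustment over all genes of a comparison and a threshold of 0.05. Code for the fit was tested on simulated data. The 37 members, the companion lists and the tests were chosen with earlier results of these data known, so no p-value is given for an arm or a list, and 0 columns of sample values were left unused. All members may be named. Values per array are given for the 4 of each arm with the largest difference between the lines and between the erbB2-positive fractions, for members called against most of their arm and for those outside the range of the lines. Of the companions, the 2 with the largest difference in each direction are named for the comparison of the lines and that of the erbB2-positive fractions, the only ones in which companions are described. Values of a few further members are printed by array where their calls rested on single arrays.

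The labels do not say that replicates are separate cultures, so p-values measure only the spread between these arrays, which may be technical, and 3 arrays per group limit the precision. The most similar arrays correlated at 0.997 yet differed by up to 1.06 at a gene, so each array counted once. Replicate numbers recur in every group. Deviations from the group means of same-numbered co-culture arrays correlated at 0.15 to 0.70 over 12 pairs of arrays, which is the basis for pairing them, since the labels do not tie the numbers to a shared culture or day. In comparisons with an unmixed line, 2 of 27 such correlations were over 0.1. Alternatives were averaging all probe sets per gene, a filter on the lowest 40% of genes, a trended and robust prior, centring on 9 reference genes, quantile normalization, the replicate number as a block, only the compared groups in the fit and each array left out. Chosen after seeing the data were a block within the 12 co-culture arrays and a fit without MMTV-neu.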

Additional observations from a re-analysis of the deposited data

Results flagged for a closer look

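The interaction of ratio and fraction was called for 4 members by limma, so that their 1:50 minus 1:1 difference was tested to be larger among the erbB2-positive than among the erbB2-negative fractions. The 25% of genes with the highest Comma-D levels held 32 of the 37 members. Of these 4985 genes, 479 had a positive interaction and 8 a negative one. Dnajb9 had an interaction of 1.32 (SE 0.32, limma adjusted p = 0.0362) and Shmt2 one of 1.16 (SE 0.30, limma adjusted p = 0.0471). Both kept the call in 3 of the 12 fits that each left out 1 co-culture array. Asns had one of 1.19 (SE 0.26, limma adjusted p = 0.0232), kept in 5 of 12 fits, and Slc3a2 one of 1.14 (SE 0.23, limma adjusted p = 0.0158), kept in 9 of 12. After centring on reference genes all 4 had a limma adjusted p of 0.073.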

How the results depend on the processing

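Members called higher and lower numbered 1 and 34 in MMTV-neu against Comma-D, but 13 and 13 after centring on reference genes. The numbers after centring were 5 and 20 (from 1 and 35) for the 1:1 erbB2-positive fraction against Comma-D, 10 and 17 (from 31 and 1) for the 1:50 erbB2-positive fraction against MMTV-neu, 5 and 23 (from 9 and 1) for the 1:1 erbB2-positive fraction against MMTV-neu, 14 and 5 (from 31 and 1) between the erbB2-positive fractions and 6 and 9 (from 1 and 26) between the 1:1 fractions. Centring left 8 lower (from 19) in the 1:1 erbB2-negative fraction against Comma-D, 0 lower (from 2) in the 1:50 erbB2-positive fraction, and 0 (from 10) and 0 (from 4) for the erbB2-negative fractions and the interaction. It put 7 and 3 members below both lines in the 1:1 erbB2-positive and erbB2-negative fractions (from 1 and 0). Of all genes called after centring, 93.0% were higher in MMTV-neu against Comma-D and 1.67% in the 1:1 erbB2-positive fraction against MMTV-neu. Quantile normalization gave 2 higher in MMTV-neu and in the 1:1 erbB2-positive fraction against Comma-D, 1 lower in the 1:50 erbB2-positive and 6 lower in the 1:1 erbB2-negative fraction, 3 and 2 lower in the 1:50 and 1:1 erbB2-positive fractions against MMTV-neu, 3 lower between the erbB2-positive fractions, 0 higher between the erbB2-negative ones, 2 higher between the 1:1 fractions and 0 below both lines.

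With centring, differences between the lines turned to 1.26 for Dnajb11, 0.64 for Hyou1, 1.38 for Manf, 0.0108 for Creld2, 0.20 for Xbp1, 0.15 for Atf6, 0.47 for Ern1, 0.0430 for Eif2ak3, 1.11 for Atf4, 1.27 for Ddit3, 0.30 for Ppp1r15a, 1.04 for Trib3, 0.0186 for Chac1, 1.30 for Sesn2, 0.59 for Phgdh, 0.52 for Slc7a5 and 0.64 for Slc7a1. With quantile normalization they turned to 0.20 for Atf4, 0.22 for Sesn2 and 0.00873 for Manf. Syvn1 in the 1:1 erbB2-positive fraction against Comma-D turned to 0.80 and 0.58 under these scalings, and Calr there against MMTV-neu to -0.0413 with centring. Between the erbB2-positive fractions centring turned Dnajb11 to -0.69, Hyou1 to -0.33, Manf to -0.76, Syvn1 to -0.60, Atf4 to -0.63, Ddit3 to -0.0665, Ppp1r15a to -0.15, Sesn2 to -0.40 and Trib3 to -0.41, and quantile normalization Dnajb11 to -0.20, Hyou1 to -0.19, Manf to -0.21, Syvn1 to -0.43, Atf4 to -0.39 and Trib3 to -0.00827. There Manf, not called, ran from -0.12 to 0.13 with 1 array left out at a time, and was below 0 without replicate 3 of either fraction.

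The replicate number as a block gave 7 lower in the 1:50 erbB2-positive fraction against Comma-D, 1 lower in the 1:50 erbB2-negative one, 20 higher and 1 lower between the erbB2-negative fractions and 9 positive interactions. Within the 12 co-culture arrays the block gave 27, 1 and 12 for the last 3. It moved no other count by over 1.5 times and changed 2 member calls among those tabulated, calling Manf between the lines and, within the co-cultures, Syvn1 between the erbB2-positive fractions. Fitting only the compared groups gave 1 higher and 12 lower in the 1:50 erbB2-positive fraction against Comma-D, 2 lower in the 1:50 erbB2-negative one, 0 higher in the 1:1 erbB2-negative one, 0 lower in the 1:1 erbB2-positive fraction against MMTV-neu, 0 between the erbB2-negative fractions, 0 higher between the 1:1 fractions and 0 interactions. Leaving out the lowest 40% of genes gave 17 higher between the erbB2-negative fractions, and 0 members lower than MMTV-neu and 0 below both lines in the 1:1 erbB2-positive fraction. The trended prior gave the same 0 and 0, and 1 lower in the 1:50 erbB2-positive fraction against Comma-D. The fit without MMTV-neu and the mean of probe sets moved no count by over 1.5 times.

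Leaving out 1 array at a time gave 1 to 2 higher in MMTV-neu against Comma-D, 1 to 4 lower in the 1:50 erbB2-positive fraction, 0 to 1 higher and 7 to 31 lower in the 1:1 erbB2-negative fraction, 1 to 2 lower in the 1:50 erbB2-positive fraction against MMTV-neu, 5 to 11 higher and 0 to 1 lower in the 1:1 erbB2-positive fraction against MMTV-neu, 1 to 23 higher and 0 to 1 lower between the erbB2-negative fractions, and 0 to 18 positive and 0 to 1 negative interactions. Of 1618 values of members in single comparisons 1417 kept their direction and their side of the threshold. The cause of these changes was not tested.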
